A study of Bos taurus with 29 samples.

Results

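Bovine endometrial explants cultured with a day 7 embryo were compared with explants cultured alone, whatever the origin of the embryo. The explants with an embryo were 6 of the 29 samples of the series, 3 with an embryo produced in vivo (EE-AI) and 3 with an embryo produced in vitro (EE-IVF), and the reference was the 3 libraries of explants alone (EE). These 9 endometrial libraries were taken by their treatment labels AI, IVF and CTRL. All 9 came from slaughterhouse tissue as polyA RNA, and each embryo library came from an explant held with a single embryo. The breed, age and cycle stage of the cows, the number of animals, the length of the culture and whether the embryo was removed before RNA extraction are not stated in the labels used here. The other 20 samples are corpus luteum and were not used here.

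An embryo at the blastocyst stage lies in the uterus, where it floats free and lives on the secretions of the endometrial glands. In cattle its trophoblast later secretes interferon tau, which switches on interferon-stimulated genes in the endometrium and restrains the prostaglandin F2 alpha pulses that would end the life of the corpus luteum. Embryo and endometrium also exchange small extracellular vesicles, membrane parcels that carry RNA and protein. The comparison asks which transcripts explants with either kind of embryo have in common against explants alone.

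Explants with an embryo and explants alone were not separated by any gene at the adjusted threshold. ENSBTAG00000039861 was 2.41-fold higher with an embryo and was above explants alone in each of the 6 matched comparisons. It passed in 1 of the tools used but not in the main test. That call was lost when EE replicate 1 or EE replicate 2 was left out. ENSBTAG00000007859 was also higher with both embryo kinds in clusters 2 and 3, from few counts. In cluster 1 it was at or near 1 count in every library. ENSBTAG00000007415, which had the lowest p of all genes, and ENSBTAG00000011741 were lower with both embryo kinds. The count table names genes by Ensembl ID, 0 of its 18180 IDs could be paired with a symbol here, and so no gene function or chromosome position is given and the endometrial label could not be checked against marker genes. For the same reason the interferon, prostaglandin, steroid receptor and cell type lists were not tested.

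The libraries held between 6067951 and 8083238 counts. They formed 3 clusters of 1 EE-AI, 1 EE-IVF and 1 EE library each, by the order of the columns within each group (title numbers 19, 25 and 13 in cluster 1, 20, 26 and 14 in cluster 2, and 21, 27 and 15 in cluster 3). The labels do not say that a cluster shares an animal, a uterus or a day, and they do not say that replicates are separate animals. The p-values therefore measure only spread among these samples. In fits with the cluster as a block, that is the spread left after differences between clusters are taken out. Of the total sum of squares of log2 CPM (CPM, the count scaled to a common library size with TMM factors), 64.8% lay between clusters, 5.56% between explants with and without an embryo, 7.04% between the embryo kinds and 22.6% in the remainder. Per degree of freedom the presence of an embryo took 5.56%, the embryo kind 7.04% and the remainder 5.66%. The presence of an embryo therefore took no larger a share than the unexplained remainder did. The kind of embryo took more of a gene's variance than its presence in 8642 genes, and less in 6435.

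**Figure D1:**
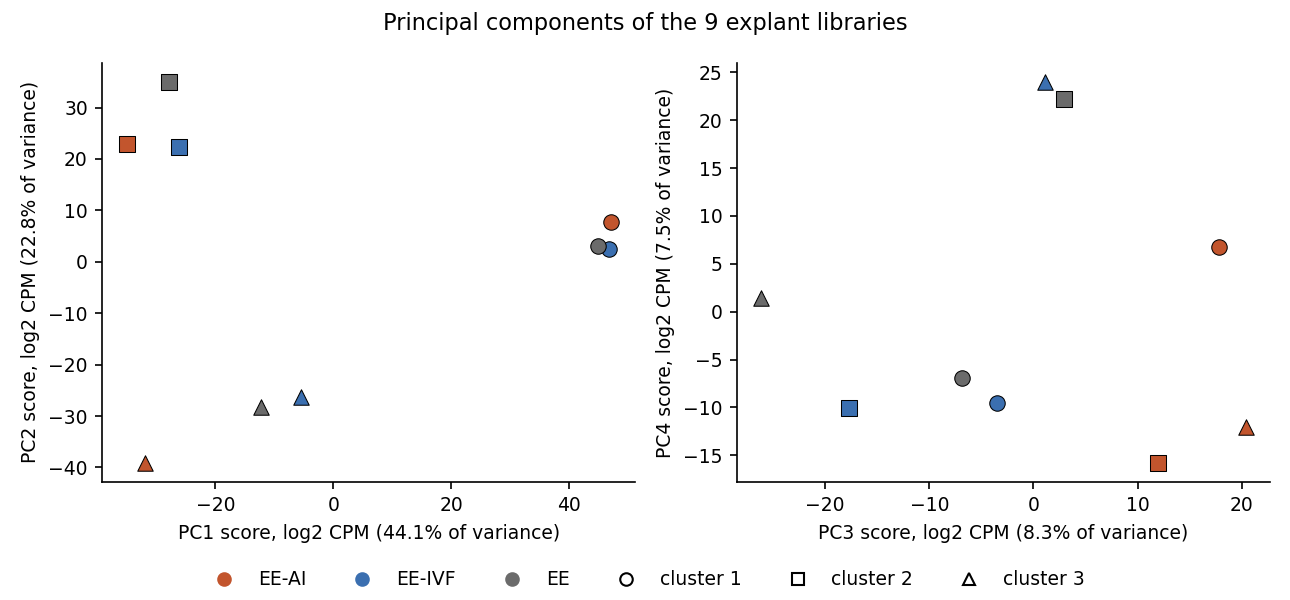
Scores of the 9 libraries on the first 4 principal components of log2 CPM over 15077 genes, with colour for the group and marker shape for the cluster. PC1 and PC2, with 44.1% and 22.8% of the variance, separate the clusters, and on no axis do the EE-AI and EE-IVF libraries together stand apart from the EE libraries.

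On the first 2 components, with 44.1% and 22.8% of the variance, libraries lay by cluster. PC3, with 8.30% of the variance, was between 11.9 and 20.4 in the 3 EE-AI libraries, between -17.7 and 1.13 in the EE-IVF libraries and between -26.1 and 2.93 in the EE libraries. That axis set EE-AI apart from both other groups, and EE-IVF overlapped EE on it.

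Distances between whole libraries were taken as the median absolute difference of log2 CPM over 10446 genes with a mean of at least 10 CPM. EE-AI stood 0.190, 0.182 and 0.189 from the EE library of its own cluster in clusters 1, 2 and 3. EE-IVF stood 0.126, 0.182 and 0.161 from it. The 2 embryo libraries of a cluster stood 0.162, 0.182 and 0.207 from each other. EE-IVF thus lay nearer to EE than to EE-AI in clusters 1 and 3. EE-AI lay nearer to EE-IVF than to EE in cluster 1, and nearer to EE in cluster 3. In cluster 2 the 3 distances were about equal. Pairs from different clusters lay between 0.195 and 0.331 apart, with a median of 0.254.

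**Figure D2:**
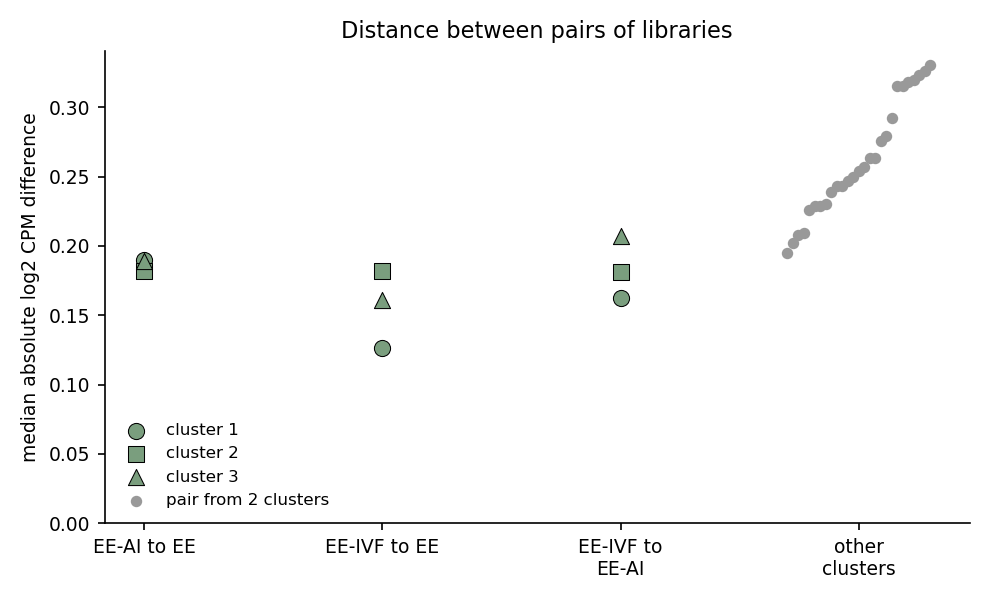
Median absolute log2 CPM difference between pairs of libraries, for the 3 kinds of pair within a cluster (1 point per cluster) and for the 27 pairs from different clusters. Pairs of embryo and EE libraries span 0.126 to 0.190, pairs of EE-IVF and EE-AI libraries 0.162 to 0.207, and pairs across clusters 0.195 to 0.331.

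The main test pooled both embryo kinds and kept the cluster as a block in edgeR's quasi-likelihood model. It called 0 of 15077 genes (0.00%) at an adjusted p under 0.05, and the lowest adjusted p was 1.000. An unadjusted p under 0.05 was reached by 448 genes (2.97%), of which 232 (1.54%) were higher and 216 (1.43%) lower with an embryo. If no gene changed, a share of about 0.05 would be expected under that limit, and 2.97% is not above it. The number depended on the model, with 642 genes under the limit when the embryo kinds were modelled as separate groups. For EE-AI alone against EE the share was 8.24%, which is above it. In both of those fits 0 genes passed the adjusted threshold. DESeq2 with the same block called 1 gene, and limma voom called 0. The median absolute log2 fold change over all genes was 0.10, and the median standard error was 0.15. The 95% interval of the fold change lay wholly within 2-fold in either direction for 13684 genes (90.8%) and wholly within 1.5-fold for 10278 genes (68.2%). For these genes a change of that size lies outside the interval, and for the other genes it was not excluded at this depth and number of libraries.

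**Figure D3:**
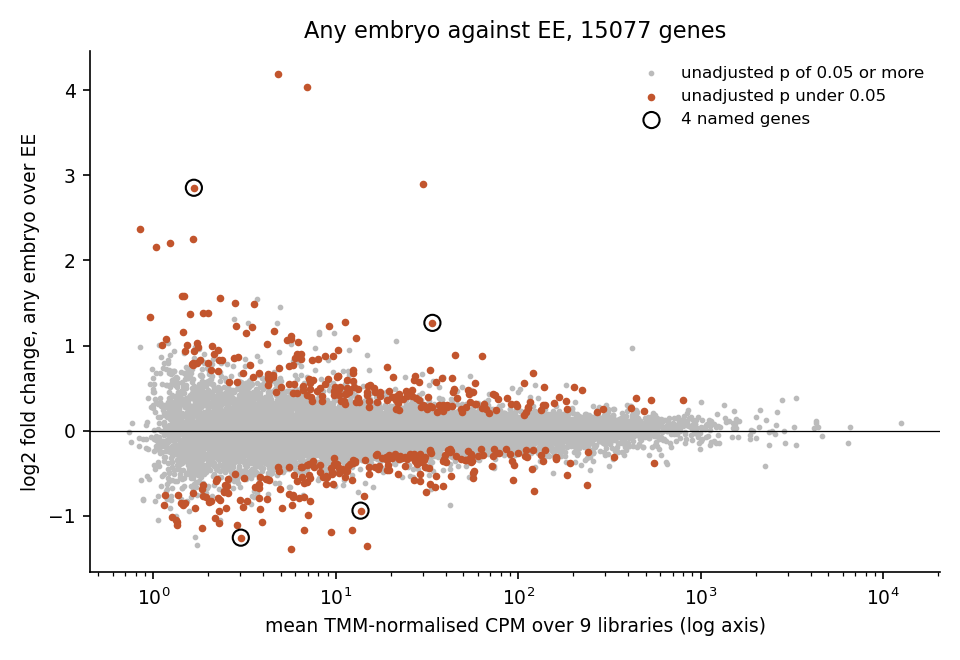
Fitted log2 fold change of explants with any embryo over EE (vertical) against the mean CPM over 9 libraries (horizontal, log axis) for 15077 genes. The 448 genes with an unadjusted p under 0.05 are coloured, the 4 named genes are ringed, and 0 genes passed the adjusted threshold.

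ENSBTAG00000039861 had the lowest p among genes that were higher with an embryo. Its level was 27.9, 92.1 and 23.5 CPM in EE-AI replicates 1, 2 and 3 and 35.0, 39.8 and 34.0 CPM in EE-IVF replicates 1, 2 and 3. In EE replicates 1, 2 and 3 it was 11.4, 26.8 and 13.9 CPM. The 6 embryo libraries overlapped EE, because EE-AI replicate 3 lay below EE replicate 2, but each embryo library lay above the EE library of its own cluster. The excess over the EE library of the same cluster was 1.27, 1.77 and 0.75 on the log2 scale for EE-AI replicates 1, 2 and 3, and 1.59, 0.57 and 1.27 for EE-IVF replicates 1, 2 and 3. The mean was 42.0 ± 25.2 CPM with an embryo (SD, n = 6) and 17.4 ± 8.25 CPM in EE (SD, n = 3). The fitted log2 fold change was 1.27 with a 95% interval from 0.70 to 1.83, and it was the third lowest p of all genes. By edgeR the adjusted p was 1.000, and by DESeq2 it was 0.00379, so the call depends on the tool. With DESeq2 the call was lost without EE replicate 1 (adjusted p = 0.129), without EE replicate 2 (adjusted p = 0.247) and without the cluster block (adjusted p = 1.000). EE-AI replicate 2 held the highest value, and without it the DESeq2 call stood at an adjusted p of 0.0370 and a log2 fold change of 1.04.

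ENSBTAG00000007859, the next by p among the higher genes, was expressed near the detection limit in EE. Its counts were 2, 30 and 40 in EE-AI replicates 1, 2 and 3 and 1, 23 and 8 in EE-IVF replicates 1, 2 and 3, against 1, 3 and 2 in EE replicates 1, 2 and 3. The difference was carried by clusters 2 and 3, and cluster 1 was at or near 1 count in all 3 libraries. The summed count as a share of all counts was 8.24 times as high with an embryo as in EE over all clusters, with an exact Poisson 95% interval from 3.66 to 23.0 that covers counting error only. In cluster 1 that ratio was 1.60 with an interval from 0.128 to 83.9, in cluster 2 it was 8.17 (from 2.65 to 40.9) and in cluster 3 it was 10.5 (from 2.76 to 89.4). The fitted log2 fold change was 2.85 (95% interval from 1.38 to 4.33) by edgeR, 2.80 by DESeq2 and 2.33 by limma voom. At levels this low the estimate rests on few counts, and how far it depends on the prior count was not tested. Its edgeR adjusted p was 1.000, and it passed in none of the alternatives.

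ENSBTAG00000007415 had the lowest p of all genes and was lower with an embryo. It was at 9.62, 7.99 and 9.74 CPM in EE-AI replicates 1, 2 and 3 and at 11.5, 8.72 and 15.1 CPM in EE-IVF replicates 1, 2 and 3. The EE libraries held 25.4, 16.6 and 18.0 CPM. All 6 embryo libraries lay below all 3 EE libraries, and EE-IVF replicate 3 came closest to EE. The mean was 10.5 ± 2.59 CPM with an embryo (SD, n = 6) and 20.0 ± 4.71 CPM in EE (SD, n = 3). The log2 fold change was -0.94 with a 95% interval from -1.33 to -0.55 and an edgeR adjusted p of 1.000. Among the alternatives it passed in 1, DESeq2 without EE-IVF replicate 3, with an adjusted p of 0.00847.

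ENSBTAG00000011741 was lower with an embryo at a low level. It was at 2.49, 2.18 and 0.749 CPM in EE-AI replicates 1, 2 and 3 and at 2.66, 2.68 and 1.62 CPM in EE-IVF replicates 1, 2 and 3, against 4.85, 6.81 and 3.08 CPM in EE replicates 1, 2 and 3. The groups did not overlap, and in each cluster the EE library was the highest of the 3. Counts were few, between 6 and 20 in the embryo libraries and between 20 and 45 in EE. The mean was 2.06 ± 0.756 CPM with an embryo (SD, n = 6) and 4.91 ± 1.86 CPM in EE (SD, n = 3). The log2 fold change was -1.26 with a 95% interval from -1.81 to -0.70, and the edgeR adjusted p was 1.000.

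Per length the order of these genes differs from that in CPM. The deposited FPKM of ENSBTAG00000039861 averaged 26.1 with an embryo and 10.8 in EE. That of ENSBTAG00000011741 averaged 2.65 with an embryo and 6.35 in EE. The FPKM of ENSBTAG00000007859 averaged 0.862 with an embryo and 0.111 in EE, and that of ENSBTAG00000007415 averaged 0.582 with an embryo and 1.13 in EE. ENSBTAG00000007415 is second in CPM among the 4 and last per length in the embryo libraries, because the gene length in the authors' FPKM is 17882 bases for it, against 776 for ENSBTAG00000011741.

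**Figure D4:**
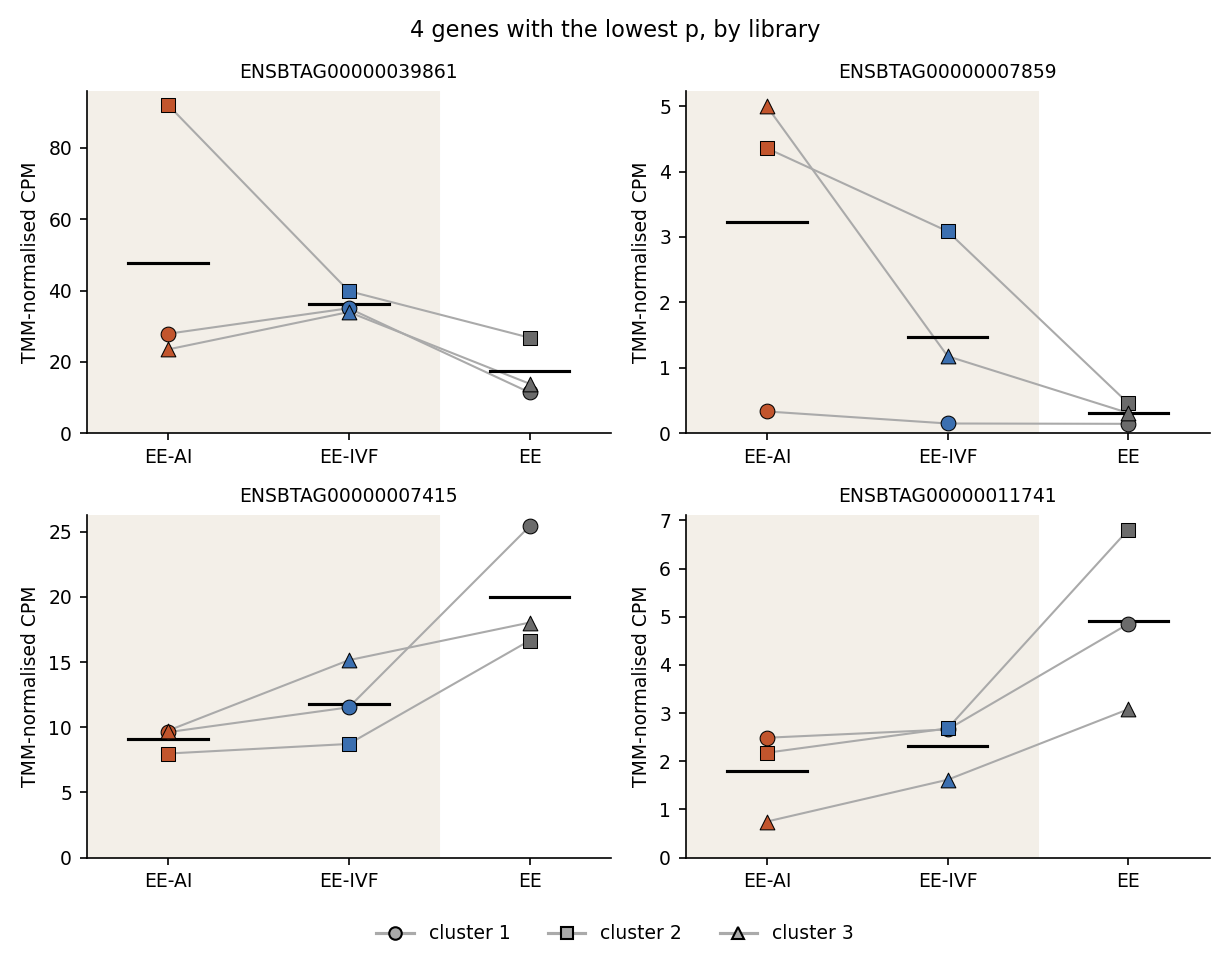
CPM of the 4 named genes in each library of EE-AI, EE-IVF (shaded) and EE, with 1 marker shape and 1 grey line per cluster and a black bar for the group mean. EE is the lowest of each cluster in the upper panels and the highest in the lower panels, and EE-AI replicate 2 stands at 92.1 CPM in the first panel. For ENSBTAG00000007859 in cluster 1, EE and EE-IVF each hold 1 count, and their order comes from library scaling.

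Each kind of embryo was then set against EE in a 3-group model with the same block. Both comparisons use the same EE libraries, so agreement between them is not independent evidence. ENSBTAG00000039861 had a log2 fold change of 1.34 (95% interval from 0.69 to 1.99) in EE-AI and 1.19 (from 0.53 to 1.85) in EE-IVF. ENSBTAG00000007415 had -1.13 (from -1.55 to -0.70) in EE-AI and -0.77 (from -1.19 to -0.36) in EE-IVF. ENSBTAG00000011741 had -1.47 (from -2.14 to -0.81) in EE-AI and -1.07 (from -1.70 to -0.43) in EE-IVF. ENSBTAG00000007859 had 3.33 (from 2.11 to 4.55) in EE-AI and 2.17 (from 0.81 to 3.53) in EE-IVF. Each of the 8 intervals excluded 0, which follows in part from choosing these genes for the pooled difference, and no edgeR adjusted p in either comparison was below 0.266.

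The difference between the kinds was tested directly as EE-IVF minus EE-AI. It was -0.15 on the log2 scale for ENSBTAG00000039861, with a 95% interval from -0.78 to 0.47. It was 0.36 (from -0.08 to 0.80) for ENSBTAG00000007415 and 0.41 (from -0.31 to 1.13) for ENSBTAG00000011741. For ENSBTAG00000007859 it was -1.16 (from -2.08 to -0.25), with an edgeR adjusted p of 0.532. The intervals that hold 0 do not show that the embryo kinds act alike on these genes. Over all genes, the share with an unadjusted p under 0.05 was 8.24% in EE-AI against EE (473 higher, 770 lower), 1.87% in EE-IVF against EE (134 higher, 148 lower) and 8.24% in EE-IVF against EE-AI (840 higher, 403 lower), and 0 genes passed the adjusted threshold in each. The pooled share of 2.97% lies between those of the 2 kinds.

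The direction of each gene within clusters was counted as a description. Both embryo libraries of a cluster are set against the same EE library, so the 6 comparisons are not independent. In 429 genes (2.85%) all 6 embryo libraries lay above the EE library of their cluster, with a median log2 fold change of 0.27. In 437 genes (2.90%) all 6 lay below it, with a median of -0.28. Genes above in 3 of 6 were the most frequent class, at 4232. In 45 genes (0.298%) all 6 embryo libraries lay above all 3 EE libraries, and in 40 genes (0.265%) all 6 lay below all 3. Of the 232 genes that were higher at an unadjusted p under 0.05, 140 were above in all 6 matched comparisons and 26 did not overlap, and of the 216 lower genes the numbers were 131 and 22. Those genes were picked by the p of the same difference, so such agreement follows in part from that choice. Higher and lower directions were near balance in each of these counts, and none of the counts was tested, so no response common to both embryo kinds is read from them.

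**Figure D5:**
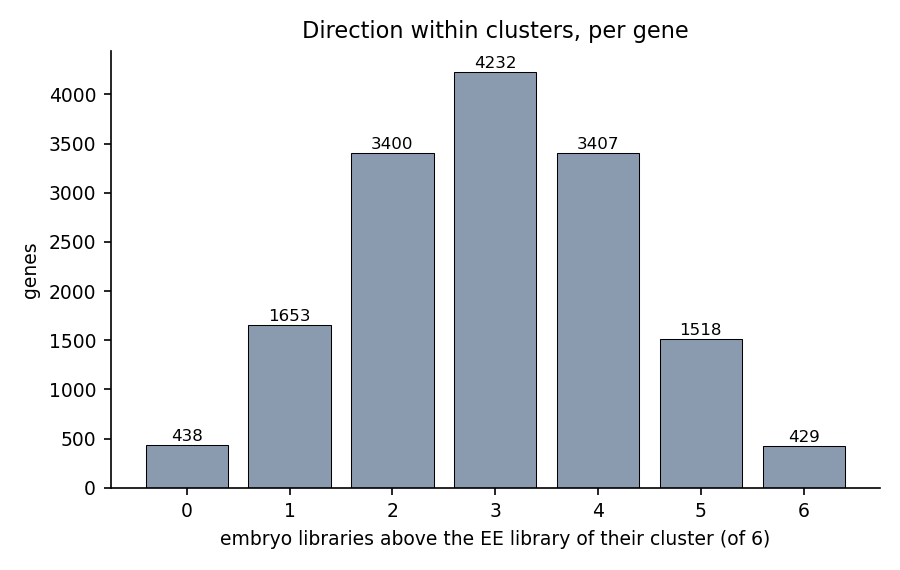
Number of genes by how many of the 6 embryo libraries lay above the EE library of their cluster. The distribution is close to symmetric about 3 of 6, with 438 genes at 0 of 6 (1 of them tied with its EE library) and 429 at 6 of 6.

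A fitted change over 2-fold was found in 47 genes (0.312%) that were higher and in 19 genes (0.126%) that were lower with an embryo, and the largest was a log2 fold change of 4.19. The mean was under 5 CPM in 32 of the 47 and in 14 of the 19, against 2792 of all 15077 genes. A single embryo library held over 50% of the CPM of the 6 in 10 of the 47 higher genes and in 4 of the 19 lower genes, against 68 of all 15077 genes. A single EE library held over 50% of the EE CPM in 33 of the 47 and in 10 of the 19, against 1628 of all 15077 genes. In 14 of the 47 and in 9 of the 19 all 6 embryo libraries lay on the same side of their EE library, against 866 of all 15077 genes. Both sets were chosen by the size of the same fold change, so a higher share than over all genes follows in part from that choice. ENSBTAG00000039861 and ENSBTAG00000007859 belong to the higher set and ENSBTAG00000011741 to the lower one. With all genes ranked by mean CPM and split into 5 bins, the share with an unadjusted p under 0.05 was 3.78% in the lowest bin (0.735 to 5.54 CPM) and 1.82% in the highest (76.0 to 12532 CPM). The median standard error was 0.30 in the lowest bin and 0.11 in the highest, and the 95% interval lay within 2-fold for 62.8% of genes in the lowest and 99.2% in the highest.

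Genes with a count on only 1 side were few. EE was at 0 in all 3 libraries for 44 genes, and 41 of them had a count in some embryo library, with a highest sum of 21 counts over the 6. In 32 of them both EE-AI and EE-IVF held a count, and in 1 gene all 6 embryo libraries did, with between 1 and 4 counts each. The embryo libraries held 42139860 counts together and the EE libraries 20023317, so more genes were open to detection on the embryo side. Conversely 4 genes had counts in EE and none with an embryo, with at most 4 counts in sum. No gene had 1 count or less in every EE library and 10 or more in all 6 embryo libraries (0 genes). In these bulk libraries, RNA of the embryo itself and RNA of the explant cannot be told apart, and neither can a smaller number of cells of a type and less RNA per cell.

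Measures of the whole library differed by less than the spread between libraries. At a common depth of 6067951 counts, embryo libraries held 17651 ± 53.2 genes with a count (SD, n = 6) and EE libraries 17663 ± 77.9 (SD, n = 3). The 100 most abundant genes took 18.4% ± 0.367 of the counts with an embryo (SD, n = 6) and 18.1% ± 0.698 in EE (SD, n = 3). Exact two-sided permutation tests within clusters, with 27 arrangements and a smallest possible p of 0.037, gave p = 0.704 for the number of genes and p = 0.519 for that share.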

How the data were processed

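RNA sequencing of 9 endometrial explant libraries was used. The authors deposited whole read counts per gene, and FPKM that follow from those counts, 1 length per gene and the library total (the same length in every library within a relative tolerance of 0.001 for the 18177 genes with a count). Trim Galore, cutadapt, STAR, featureCounts and DESeq2 are named in the submitters' processing notes. Tool versions, genome build and gene annotation: not given in the sources used here. Per the labels' protocols, the libraries were made with a stranded mRNA kit and run in 1 lane. Of 36 pairs of libraries, 0 were identical.

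Of 18180 genes, filterByExpr on both sides kept 15077. Counts were scaled by TMM and fitted by edgeR quasi-likelihood (cluster plus embryo present), with Benjamini-Hochberg adjustment over all genes and a threshold of 0.05. The 95% intervals were derived from each fold change and its F statistic. For some genes with low counts they are narrower than the p-value would give. The block follows the column order. Libraries of a cluster deviated together after centring on group means, with correlations across genes between 0.416 and 0.738 in all 9 pairs. The block, the comparison and the lists were chosen with earlier results of these data known. With no symbols to match, 0 of 29 planned gene lists could be used, and the naming rule gave the 2 IDs per direction with the lowest p and a mean of at least 1 CPM on either side. The distances between libraries used CPM on the library total with a pseudocount of 0.5. The fits were tested on simulated data. Alternatives were DESeq2, limma voom, other scaling and filters, no block, and leaving out libraries or clusters. Software was Python 3.11.15 with numpy 2.4.6, and R 4.3.3 with DESeq2 1.42.0, edgeR 4.0.16 and limma 3.58.1.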

Additional observations from a re-analysis of the deposited data

Results flagged for a closer look

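ENSBTAG00000039861 stood at 92.1 CPM in EE-AI replicate 2, far above the other 5 embryo libraries, which lay between 23.5 and 39.8 CPM. This gap took 0.761 of the range of the 6 libraries, over the limit of 0.625, a limit that chance passes in roughly 1 in 20 groups, and 4 genes and 4 measures of the library were examined this way. The EE library of the same cluster was also the highest of its group, at 26.8 CPM. The gap was taken on CPM, not on the log2 scale, and without the cluster block. On the log2 scale EE-AI replicate 2 exceeded the EE library of its cluster by 1.77, against 1.59 for EE-IVF replicate 1. Without EE-AI replicate 2 the log2 fold change of this gene was 1.04 by edgeR and 1.04 by DESeq2.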

How the results depend on the processing

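With edgeR, 0 genes passed under every alternative run, among them 9 fits that each left out 1 library and 3 that left out a cluster, and limma voom also called 0. DESeq2 called 1 gene with all libraries, 0 with no replicate block (a setting chosen after seeing the data, as was leaving libraries out of DESeq2), and between 0 and 7 without 1 library. It called 0 without EE replicate 2, 2 without EE replicate 1, 3 without EE replicate 3, 3 without EE-AI replicate 1, 7 without EE-IVF replicate 2 and 4 without EE-IVF replicate 3. The genes with an unadjusted p under 0.05 numbered 56 higher and 43 lower with no replicate block, and 152 higher and 120 lower by DESeq2. Modelling 3 groups gave 265 higher and 377 lower genes. Leaving out libraries or clusters gave between 164 and 337 higher and between 138 and 400 lower genes (151 to 400 for single libraries), with 400 lower without EE-IVF replicate 2, 375 without EE-IVF replicate 3, 138 without cluster 1 and 331 without cluster 2. With no replicate block, 270 genes were under 0.05 for EE-AI and 56 for EE-IVF, both against EE, 219 genes were under it between the kinds, and 0 passed the adjusted threshold in each. The causes of these shifts were not tested. The stricter filter removed ENSBTAG00000007859. Leaving out 1 library in edgeR gave log2 fold changes between 1.04 and 1.42 for ENSBTAG00000039861, between 2.38 and 3.15 for ENSBTAG00000007859, between -1.13 and -0.76 for ENSBTAG00000007415 and between -1.44 and -1.12 for ENSBTAG00000011741. Permutation over all 84 choices of 3 libraries changed no call for the library measures. Other scalings of gene list levels were not run, since the IDs could not be paired with symbols. Few libraries and low counts limit the least abundant genes most.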
